A study of Mus musculus with 9 samples.

Results

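Cardiomyocyte cultures named for cardiac troponin T (cTnT+) were compared with Flk1+ progenitors that lacked Pdgfra (Flk1+), both grown from mouse embryonic stem cells. The members of the comparison were the 3 arrays titled cTnT+ and the 3 arrays titled Flk1+, which make 6 of the 9 arrays of the study, and expression was described across 14860 genes. A gene was included if a transcript cluster of the Affymetrix Mouse Exon 1.0 ST array carried its symbol alone, and its brightest cluster over all arrays stood for it. All cells came from the embryonic stem cell line E14.1 on the 129/Ola background, which is 1 line, and none of the groups carried a named transgene, deletion or drug. The stem cells had been driven towards cardiac progenitors and then separated by Flk1 (gene Kdr) and Pdgfra. Cells with Flk1 but without Pdgfra are the Flk1+ group. Cells with both receptors are the Flk1+Pdgfra+ group, from which the cTnT+ cells were grown on. The cTnT+ cells were therefore not descendants of the Flk1+ cells with which they were compared, and the labels give neither the days of culture nor a sort for cTnT. The account below is above all of the endothelial and blood genes that the cardiac culture did or did not have in common with this other progenitor fraction. Whether the replicates of a group were separate cultures is not given in the labels, and the p-values below therefore reflect spread from array to array, possibly technical.

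Flk1 marks mesoderm that can give rise to heart, vessels and blood, and cells that carry Pdgfra as well are biased towards the heart. In mesoderm that turns towards vessels and blood, the ETS factor Etv2 switches on other ETS factors (Fli1, Erg), SoxF factors and the factors Tal1, Lmo2 and Gata2, which are used by endothelium and by the first blood cells. The first blood of the mouse embryo is made of large red cells with embryonic globins, followed by megakaryocytes and macrophages. The heart holds its own endothelium, the endocardium, which arises close to the cardiac muscle.

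Within Flk1+ the arrays correlated across genes at 0.973 to 0.996 (Pearson) and within cTnT+ at 0.983 to 0.987, and genes are not independent replicates. Flk1+ replicate 3 stood apart. On the second principal component, with 20.5% of the variance, its score was -6.5, against -45.3 and -44.8 for replicates 1 and 2. The pluripotency factor Pou5f1 was at 10.73 on it and at 6.69 and 7.41 on the other Flk1+ arrays, and the epithelial cadherin Cdh1 was at 11.25 against 7.16 and 7.24. The median gene of the endothelial surface list was lower by 0.96 on the log2 scale, and that of the epithelial list 1.61 higher, on this array than on the mean of the others. Counts are given with all arrays, and those of the endothelial, blood and heart genes, and of lists that moved most, also without Flk1+ replicate 3. All values are log2 expression after RMA, so 1 unit is 2-fold. Genes whose lower group mean lay below the arrays' lower quartiles (5.60 to 5.69) are called dim, and their folds are no exact measure.

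The markers of the groups were read first. Tnnt2, which encodes cardiac troponin T (transcript cluster 6753402), was at 12.59, 12.40 and 11.85 on the cTnT+ arrays and at 8.54, 8.77 and 7.77 on the Flk1+ arrays. All cTnT+ arrays lay above all Flk1+ arrays, and the difference was 15.1-fold (limma, adjusted p = 5.73e-05). Myl7, the atrial myosin light chain (transcript cluster 6785752), was at 13.50, 13.33 and 12.59 against 6.34, 7.08 and 8.06, which was 63.2-fold higher (adjusted p = 0.000193). Fli1, an ETS factor of endothelium and blood (transcript cluster 6994431), was at 8.30, 8.99 and 8.95 in cTnT+ and at 12.27, 12.31 and 11.87 in Flk1+. Its groups did not overlap either, and it was 10.6-fold lower in cTnT+ (adjusted p = 0.00388). Samsn1, an adaptor protein of blood cells (transcript cluster 6847190), was at 6.52, 7.82 and 6.69 against 11.01, 11.05 and 10.46, a 14.2-fold lower level (adjusted p = 0.00214). Over all genes, 26.8% had every cTnT+ array above every Flk1+ array and 20.6% had every cTnT+ array below.

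The genes of the sort followed their labels. Pdgfra was at 6.55, 6.99 and 7.35 in Flk1+ and at 11.42, 10.95 and 11.56 in cTnT+, without overlap, a 20.3-fold difference (adjusted p = 2.52e-05). In Flk1+Pdgfra+ it was at 11.14, 11.07 and 11.84, and cTnT+ minus Flk1+Pdgfra+ was -0.04. Kdr was at 12.33, 12.45 and 12.14 in Flk1+ and at 10.59, 11.41 and 10.51 in cTnT+, 2.76-fold lower (adjusted p = 0.0018). The cTnT+ level of Kdr was still well above the array medians (7.26 to 7.53). In bulk samples such as these, fewer cells of a type and less RNA per cell cannot be told apart.

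**Figure D1:**
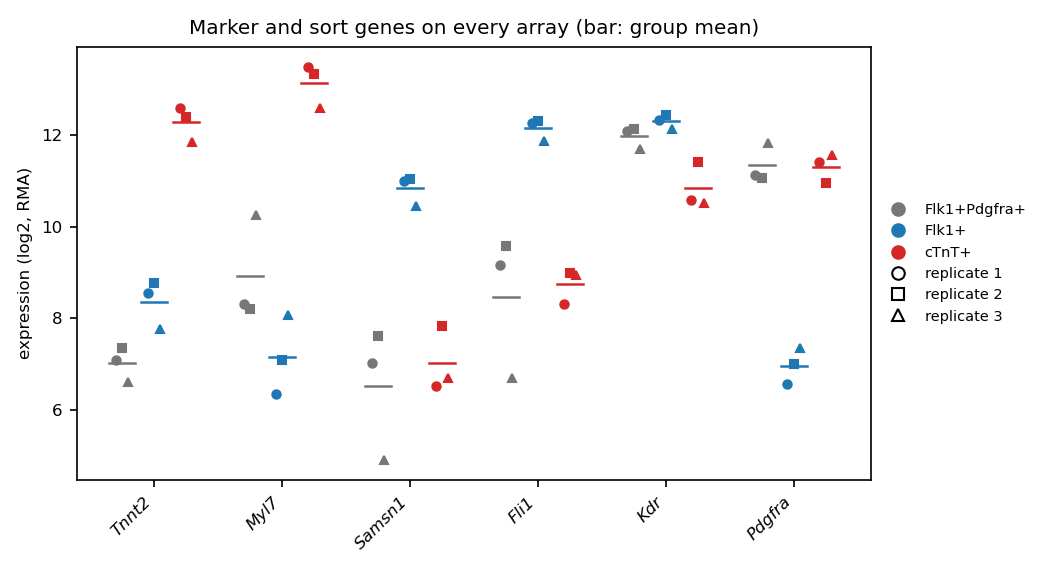
Expression (log2, RMA) of the 4 marker genes and the 2 receptors of the sort on each of the 9 arrays. Colours stand for the groups, symbols for the replicate number and bars for the group mean of 3 arrays; the cTnT+ and Flk1+ arrays do not overlap for any of the 6 genes, and Kdr is the gene with the smallest gap.

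Across all genes, the contractile and ion-handling genes of heart muscle were mostly higher in the cTnT+ culture. Several early mesoderm genes and most ETS, SoxF and haemato-endothelial factors were higher in Flk1+, while other vessel and blood genes went both ways. By limma with a Benjamini-Hochberg adjusted p under 0.05, 3363 genes were higher in cTnT+ (22.6% of those tested) and 2464 were lower (16.6%), together 39.2%. At least 2-fold differences were found for 1509 genes higher in cTnT+ (10.2%) and 590 lower (3.97%). The split of the calls depended on the scale. The median difference of all genes was 0.05 as deposited, and it moved by -0.14 with quantile normalization and by -0.34 when arrays were centred on their medians. The share of calls that were higher fell from 57.7% to 41.4% (2575 higher, 3638 lower) and to 28.8% (1909 higher, 4721 lower). Directions of small differences are therefore relative to the scale, and the counts of lists below, which have no fold limit, include such differences. Differences of 1 unit and above are larger than these shifts.

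The 10 largest differences upward were those of Plppr5, Tecrl, Myl7, Slc8a1, Smyd1, Sphkap, Gata5, Actn2, Hbb-y and Hba-x. Several are genes of heart muscle: Slc8a1, the sodium-calcium exchanger (62.1-fold), Smyd1, a methyltransferase of developing muscle (59.3-fold), Gata5, a cardiac GATA factor (58.6-fold), and Actn2, which anchors thin filaments (50.9-fold). Plppr5 (72.9-fold), Tecrl (67.8-fold) and Hbb-y were dim in Flk1+. The last 2 of the 10 are embryonic globins of red cells. The 10 largest differences downward were those of Mixl1, Cyp26a1, Lgr5, Eomes, Nrip3, Samsn1, Etv2, Tfec, Gldc and Nxph4. Mixl1 (48.4-fold lower) and Eomes (19.9-fold) are factors of the primitive streak, Cyp26a1 (45.5-fold) breaks down retinoic acid, and Lgr5 (23.0-fold) is a receptor for R-spondin. Samsn1, Etv2 and Tfec belong to the vessel and blood lists described below. The smallest p-values upward were those of Ppargc1a, Gata5, A2m, Sox6 and Tnni1 (adjusted p = 5.5e-07 to 5.09e-06), and downward those of Cyp26a1, Grm6, Mthfd1, Mdn1 and Pla2g4c (5.09e-06 to 1.06e-05).

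**Figure D2:**
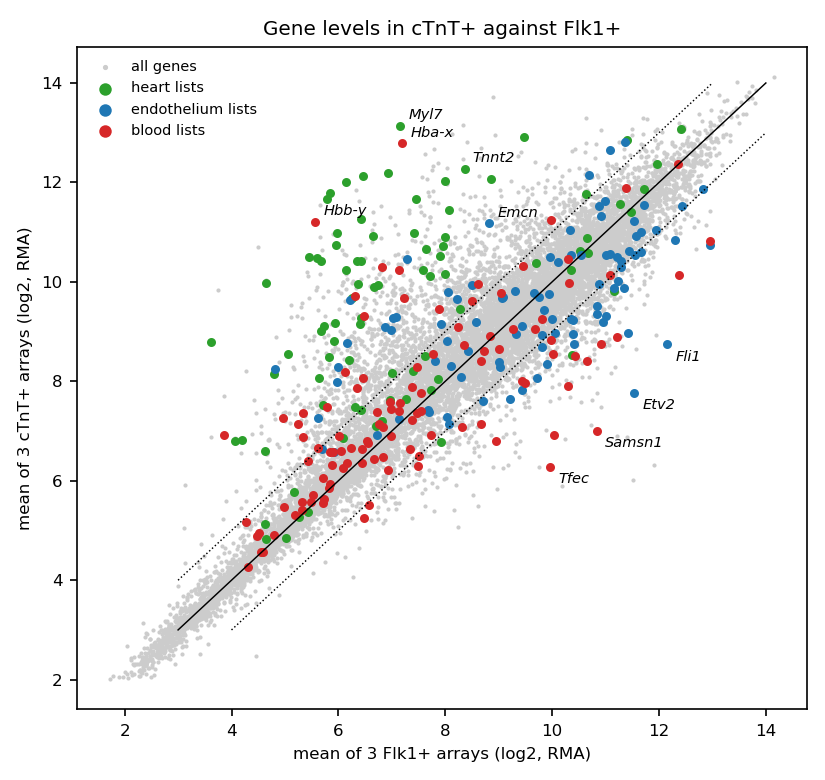
Mean log2 expression of each of the 14860 genes in the 3 Flk1+ arrays (x) and the 3 cTnT+ arrays (y). The solid line marks equal levels and the dotted lines a 2-fold difference; genes of the heart lists (green) lie mostly above the band, those of the endothelium (blue) and blood lists (red) lie on both sides of it, with Etv2, Fli1, Samsn1 and Tfec far below and Hba-x and Hbb-y far above.

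Endothelial genes went both ways between the populations. Among 93 measured endothelial genes, 22 were higher in cTnT+ and 22 were lower (23.7% each, against 22.6% and 16.6% of all genes), with a median difference of -0.31. Most ETS and SoxF factors were lower and most secreted vessel ligands were higher. Other transcription factors among these genes went both ways, with Nr2f2 and Prox1 higher and Bcl6b and Nfatc1 lower. Receptors and surface proteins were mostly not called in either direction, as were 9033 of 14860 over all genes. The balance moved with the scale, to 20 higher and 25 lower after quantile normalization and to 18 and 33 after median centring. Without Flk1+ replicate 3 the counts were 21 higher and 29 lower with a median of -0.59, against 23.7% and 16.6% of all genes in that fit. Without Flk1+ replicate 2 only 14 were lower. For 40 of the 93 genes the difference was neither called nor bounded within 2-fold by its 95% interval, so for these the arrays show neither a difference nor a like level (1233 of 14860 over all genes). Both populations stood above Flk1+Pdgfra+: 45 of the genes were higher in Flk1+ than in Flk1+Pdgfra+ (5.87% of all genes were) and 51 were higher in cTnT+ than in Flk1+Pdgfra+ (22.5% of all genes were), and these 2 comparisons share the Flk1+Pdgfra+ arrays. With the replicate number as a block, 43 in place of 45 were higher in Flk1+. The mean of cTnT+ lay between those of the progenitor fractions for 44 of the 93, and for 1195 of 14860 over all genes.

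**Figure D3:**
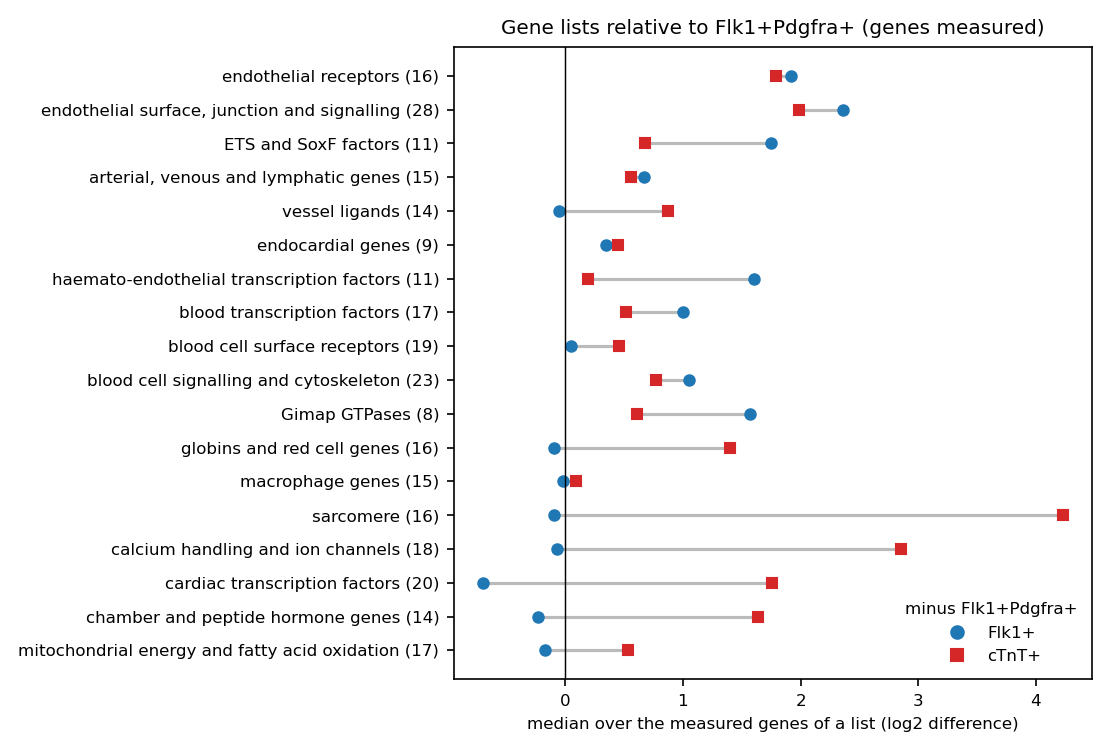
Median log2 difference from Flk1+Pdgfra+ over the measured genes of each list, for Flk1+ (circles) and cTnT+ (squares), with the number of genes measured in brackets. The symbols lie close together for endothelial receptors (1.92 and 1.79), although the median over genes of cTnT+ minus Flk1+ was -0.77 for that list. They lie apart for ETS and SoxF factors (1.75 and 0.68), globins and red cell genes (-0.10 and 1.40) and sarcomere genes (-0.10 and 4.23). Each median was taken separately, and both series share the Flk1+Pdgfra+ arrays.

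The ETS and SoxF factors sit at the top of the endothelial programme, and 8 of 11 measured were lower in cTnT+ and 0 were higher (median -1.06). The share lower was 72.7%, against 16.6% of all genes. Etv2, the factor that starts the programme, was at 11.06, 11.52 and 12.04 in Flk1+ and at 7.35, 8.67 and 7.29 in cTnT+. The arrays did not overlap, and the level was 13.6-fold lower (adjusted p = 0.000265). Etv2 was as high in Flk1+Pdgfra+ (11.80, 12.28 and 11.37) as in Flk1+, which sets it apart from Fli1. Erg, which keeps endothelial cells in their identity, was at 11.28, 11.28 and 10.31 against 9.03, 9.71 and 8.86, 3.37-fold lower (adjusted p = 0.0103). Its cTnT+ level was nevertheless 1.73 above Flk1+Pdgfra+ (adjusted p = 0.0102), so Erg lay between the progenitor fractions. The SoxF factors Sox7 and Sox18 were 5.43-fold and 3.27-fold lower (adjusted p = 0.0205 and 0.0226), and the third member of that family, Sox17, was 1.67-fold lower without passing (adjusted p = 0.0742). Ets1 (2.09-fold), Etv6 (2.02-fold) and Ets2 (difference -0.65) were lower by smaller amounts, and Elk3 (-0.65) and Elf1 (0.18, 95% interval -0.37 to 0.73) were not called. The count of 8 became 4 without Flk1+ replicate 1, Flk1+ replicate 2 or cTnT+ replicate 1 and 5 without cTnT+ replicate 3, and Sox7 was among those that then missed the threshold (adjusted p = 0.0623 to 0.0671), while the calls of Etv2 and Fli1 held under every alternative.

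The haemato-endothelial factors, which act in the common precursors of vessel and blood cells, showed the same direction with 7 of 11 lower and 1 higher (median -1.43). The shares were 63.6% and 9.09%, against 16.6% and 22.6% of all genes. Tal1, needed for all blood lineages, was at 11.30, 11.32 and 11.05 in Flk1+ and at 8.87, 8.95 and 8.87 in cTnT+, 5.01-fold lower without overlap (adjusted p = 0.000141). Its cTnT+ level differed from that of Flk1+Pdgfra+ (8.97, 9.23 and 8.24) by 0.08. Lmo2, a partner of Tal1 in the same complex, was at 12.19, 12.32 and 12.62 against 9.68, 11.13 and 9.62, 4.70-fold lower (adjusted p = 0.00177). Gata2 was 4.75-fold lower (adjusted p = 0.0204), Hhex 5.27-fold (adjusted p = 0.000701), Runx1, the factor of definitive blood, 4.48-fold (adjusted p = 0.0021) and Lyl1, a relative of Tal1, 2.69-fold (adjusted p = 0.0272). The corepressor Cbfa2t3 was lower by a smaller amount (difference -0.55, adjusted p = 0.0282). Meis1, a homeobox factor used by blood stem cells and by the heart, went the other way, at 6.52, 6.56 and 7.38 in Flk1+ against 10.48, 10.18 and 10.23 in cTnT+ (11.1-fold higher, adjusted p = 6.68e-05). Mecom was 1.57 higher on the log2 scale without passing (interval -0.07 to 3.20), and Ldb1, the scaffold of the Tal1 complex, was alike within 2-fold (0.02, -0.18 to 0.23). The count of 7 became 4 without Flk1+ replicate 1, Flk1+ replicate 2 or cTnT+ replicate 1. Gata2 did not pass in any of these (0.0585, 0.0588 and 0.0646) or without cTnT+ replicate 3 (0.0654), and Cbfa2t3 did not pass in the first 3 (0.0820 to 0.0895).

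Endothelial receptors were mostly not called, and the same held for all genes. Of 16 measured, 2 were higher in cTnT+ and 4 lower (median -0.77), and 10 were not called. Over all genes, 22.6% were higher, 16.6% were lower and 9033 of 14860 were not called. The angiopoietin receptor Tek was at 12.14, 12.13 and 11.58 in Flk1+ and at 10.80, 10.98 and 11.35 in cTnT+. The cTnT+ arrays were all below the Flk1+ arrays, but the difference of -0.91 did not pass (interval -2.13 to 0.32, adjusted p = 0.225), and Tek was 3.15 above Flk1+Pdgfra+ in cTnT+ (adjusted p = 0.00185). The difference of its relative Tie1 was -0.87 with an interval of -2.31 to 0.57. The VEGF receptor Flt1 missed the threshold as well (-1.32, interval -2.65 to 0.02, adjusted p = 0.111), while Kdr passed it as given above. Aplnr, the apelin receptor of early mesoderm and vessels, was 4.64-fold lower (adjusted p = 0.00179), Robo4, a guidance receptor of vessels, 3.00-fold (adjusted p = 0.00118) and the semaphorin receptor Plxnd1 1.87-fold (adjusted p = 0.0429). The endothelin receptor Ednrb was higher, at 7.26, 7.44 and 7.15 in Flk1+ against 10.11, 10.04 and 11.26 in cTnT+ (9.08-fold, adjusted p = 0.00012). Nrp1, a co-receptor for VEGF and semaphorins, was 2.99-fold higher (adjusted p = 9.18e-05). The TGF-beta co-receptor Eng and the receptor Acvrl1 were alike within 2-fold and are described with the genes held in both populations. The count of lower receptors was 7 without Flk1+Pdgfra+ replicate 3, and that of higher receptors was 4 without cTnT+ replicate 1. Flk1+Pdgfra+ replicate 3 enters the spread that the groups share in the fit. Fli1 was at 6.69 on it, against 9.16 and 9.57 on Flk1+Pdgfra+ replicates 1 and 2.

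Surface, junction and signalling proteins of endothelium are described in 3 sets, by their calls. Of 28 measured, 7 were higher in cTnT+, 6 lower and 15 not called (median -0.44). Over all genes, 22.6% were higher and 16.6% lower, so the split of this list was close to that of all genes. VE-cadherin (Cdh5), which joins endothelial cells, was at 13.09, 13.08 and 12.33 in Flk1+, at 11.53, 12.29 and 11.80 in cTnT+ and at 10.25, 10.27 and 7.47 in Flk1+Pdgfra+. The cTnT+ arrays lay below Flk1+ and above Flk1+Pdgfra+, and only the step above Flk1+Pdgfra+ was called (2.55, adjusted p = 0.018, against -0.96 from Flk1+, interval -2.55 to 0.63). Pecam1, another junction protein, was at 11.36, 11.39 and 10.26 in Flk1+ and at 10.12, 10.97 and 10.55 in cTnT+, so these groups overlapped (difference -0.46, interval -1.81 to 0.89). For Cd93 the difference was 0.00, with an interval of -1.05 to 1.06 that is too wide to bound it within 2-fold. The lower set held the endothelial nitric oxide synthase Nos3 (3.19-fold, adjusted p = 0.00903), the adhesion protein Icam2 (3.13-fold), the exchange factors Arhgef15 (2.94-fold) and Fgd5 (2.69-fold), the secreted Egfl7 (2.74-fold) and von Willebrand factor, Vwf (1.68-fold).

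The higher set held proteins of sinusoidal, lymphatic and endocardial endothelium as well as general ones. Emcn, an endothelial sialomucin, was at 9.13, 10 and 7.35 in Flk1+ and at 10.80, 11.36 and 11.39 in cTnT+, 5.12-fold higher (adjusted p = 0.023) with no overlap. Stab2, a scavenger receptor for hyaluronan, was at 6.06, 5.97 and 5.88 against 7.82, 8.45 and 7.67, 4.03-fold higher (adjusted p = 0.000109). Lyve1, a hyaluronan receptor of lymphatic and early endothelium and of some macrophages, was at 6.77, 6.76 and 7.53 against 9.93, 10.32 and 7.56. Its cTnT+ replicate 3 was level with the highest Flk1+ array, and its 4.76-fold difference (adjusted p = 0.023) did not pass without Flk1+ replicate 1, Flk1+ replicate 2, cTnT+ replicate 1 or cTnT+ replicate 2 (0.069 to 0.0785). Emcn did not pass without cTnT+ replicate 2 (0.0651) or cTnT+ replicate 3 (0.0647). Jam2 (4.15-fold), Clec14a (3.09-fold) and Icam1 (2.34-fold) were the other genes more than 2-fold higher. Without Flk1+ replicate 3 the list gave 6 higher and 9 lower, and without Flk1+ replicate 1, Flk1+ replicate 2 or cTnT+ replicate 2 it gave 4 higher.

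**Figure D4:**
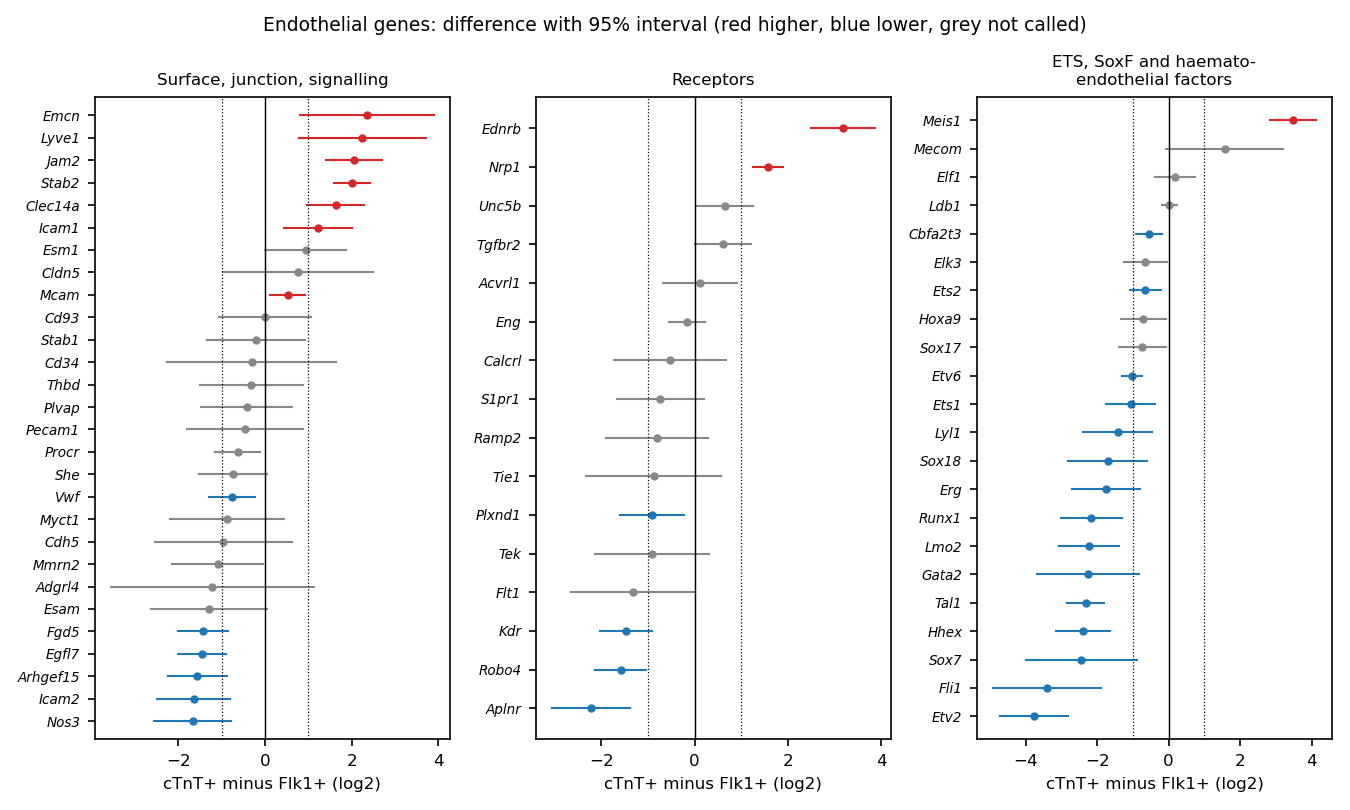
Difference between cTnT+ and Flk1+ (log2, with its 95% interval from limma, n = 3 arrays each) for each endothelial surface gene, endothelial receptor and ETS, SoxF or haemato-endothelial factor. Red marks genes called higher in cTnT+, blue genes called lower and grey genes not called; the factor panel is mostly blue from Etv2 (-3.77) upward with Meis1 (3.47) alone in red, and the other panels hold many grey intervals that cross the dotted 2-fold lines.

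Of 15 arterial, venous and lymphatic genes, 2 were higher and 2 lower (13.3% each, against 22.6% and 16.6% of all genes, median -0.06), and 9 were neither called nor bounded. The higher genes were Nr2f2, the factor of venous fate (3.36-fold, adjusted p = 0.00883), and Prox1, the factor of lymphatic fate, which heart muscle also uses (2.70-fold, adjusted p = 0.00819). The lower genes were the repressor Bcl6b (2.78-fold, adjusted p = 0.0133) and the chemokine receptor Cxcr4 (1.93-fold, adjusted p = 0.0103). The Notch ligand Dll4 (-0.31), Notch1 (-0.99) and the Notch targets Hey1 (-0.91) and Hey2 (-0.06) were not called, and the interval of each reached beyond 2-fold. The count of lower genes was 1 without Flk1+ replicate 2 and 5 without Flk1+ replicate 3, where the median was -0.59.

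Secreted vessel ligands were mostly higher in cTnT+, with 8 of 14 higher and 1 lower (median 0.62). The shares were 57.1% and 7.14%, against 22.6% and 16.6% of all genes. Cxcl12, the ligand of Cxcr4, was at 5.89, 5.79 and 6.96 in Flk1+ and at 9.17, 9.80 and 9.90 in cTnT+, 10.6-fold higher without overlap (adjusted p = 0.000119). Angpt1, the activating ligand of Tek, was at 4.70, 4.52 and 5.21 against 8.28, 8.19 and 8.29 (adjusted p = 1.08e-05), and it was dim in Flk1+. Angpt2, which mostly opposes Angpt1, was 4.63-fold higher (adjusted p = 0.000347), and placental growth factor, Pgf, was 6.05-fold higher (adjusted p = 6.8e-05). Bmp4 (2.76-fold) and Vegfa (1.63-fold, adjusted p = 0.0106) were higher by less. Pdgfb, which endothelial cells release to recruit mural cells, was lower, at 10.26, 10.76 and 10.15 in Flk1+ against 9.03, 9.35 and 9.35 in cTnT+ (2.21-fold, adjusted p = 0.00642). The count of lower ligands was 2 without Flk1+ replicate 1.

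Of 9 endocardial genes, 3 were higher and 1 lower (33.3% and 11.1%, against 22.6% and 16.6% of all genes, median 0.55). Tmem100, a target of BMP signalling in endothelium, was 4.91-fold higher (adjusted p = 0.00133), the natriuretic peptide receptor Npr3 4.63-fold (adjusted p = 0.00054) and the endothelin-converting enzyme Ece1 2.74-fold (adjusted p = 0.000166). Nfatc1, a factor of the endocardium, was 2.12-fold lower (adjusted p = 0.0379) and lost its call in each of 7 fits without 1 array (0.051 to 0.123), among them those without Flk1+ replicate 1, Flk1+ replicate 2 and cTnT+ replicate 3. Klf2 (-0.25) and Klf4 (0.20), factors that respond to flow, were alike within 2-fold.

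A gene was counted as held in both populations when its difference was bounded within 2-fold and both means stood at least 1 log2 unit above that of Flk1+Pdgfra+. Of all genes, 10346 were bounded (69.6%) and 94 were held in both (0.633%). Among endothelial genes 11 were bounded (11.8%) and 4 were held. Without Flk1+ replicate 3, 10 endothelial and 38 blood genes were bounded, against 68% of all genes. Eng, the co-receptor of BMP and TGF-beta in endothelium, was at 11.68, 11.89 and 11.57 in Flk1+ and at 11.26, 11.78 and 11.61 in cTnT+. These groups overlapped, and both stood above Flk1+Pdgfra+ (9.57, 9.72 and 10.02) by 1.94 and 1.78. The difference was -0.16 (interval -0.55 to 0.23, adjusted p = 0.504), and under median centring it was called (adjusted p = 0.0468). Its partner receptor Acvrl1 was at 9.90, 10 and 9.09 against 9.35, 10.53 and 9.47 (difference 0.12, interval -0.68 to 0.91). Endothelin 1, Edn1, was at 7.92, 8.42 and 8.53 against 7.46, 8.50 and 8.28 (difference -0.21, interval -0.82 to 0.40). The adhesion protein Mcam was held too, with a small difference of 0.53 (adjusted p = 0.0431) whose call was lost in 13 of the alternatives and whose interval reached 1.01 without Flk1+ replicate 3, past the bound.

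Over all genes, the 8 held in both with the widest step above Flk1+Pdgfra+ were Mbnl1, Tmtc2, Arhgdib, Nid1, Alox5ap, Phxr4, Ppp1r13b and Npl. Nid1, a basement membrane protein, was at 12.39, 12.45 and 11.95 in Flk1+, at 11.64, 12.93 and 12.82 in cTnT+ and at 10.12, 10.04 and 9.52 in Flk1+Pdgfra+. Mbnl1, a splicing regulator, was at 10.53, 10.43 and 9.82 against 10.34, 10.16 and 11.02. For both genes the Flk1+ and cTnT+ arrays overlapped and every one of them lay above every Flk1+Pdgfra+ array. Ppp1r13b was bounded and yet called lower by a small amount (-0.46, adjusted p = 0.0212), a call that was lost without Flk1+ replicate 2, cTnT+ replicate 1 or cTnT+ replicate 3 (0.0643 to 0.0671).

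Blood genes went both ways too, and a split by lineage was not tested. Among 109 measured blood genes, 26 were higher in cTnT+ and 21 lower (23.9% and 19.3%, against 22.6% and 16.6% of all genes), and the median difference was 0.19. Genes of red cells made up 13 of the 26 that were higher, and transcription factors made up 11 of the 21 that were lower. The order of the counts turned with the scale, to 20 higher and 29 lower after quantile normalization and to 18 and 32 after median centring. Without Flk1+ replicate 3 the counts were 26 and 23. Of the 109 genes 41 were bounded within 2-fold (37.6%), but 23 were dim in at least 1 group, where a like level may only mean that neither population was above the array's low range. There were 4 held in both (Cbfa2t3, Spi1, Arhgdib and Alox5ap). Without Flk1+ replicate 3 the interval of Spi1 stayed within 2-fold, while those of Cbfa2t3 (to -1.05), Alox5ap (to -1.07) and Arhgdib (to 1.04) passed just beyond it.

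Of 17 blood transcription factors, 4 were lower in cTnT+ and 2 higher, and 11 were not called (23.5% lower, against 16.6% of all genes, median 0.02). Myb, needed for definitive blood, was at 10.59, 10.23 and 9.29 in Flk1+ and at 6.87, 7.26 and 6.62 in cTnT+, 8.67-fold lower (adjusted p = 0.000156). Tfec, a factor of the Mitf family, was at 10.02, 10.41 and 9.47 against 6.53, 6.05 and 6.27, 12.9-fold lower (adjusted p = 0.000258). Neither gene's groups overlapped, and for Myb the cTnT+ arrays lay below the Flk1+Pdgfra+ arrays as well (7.39, 7.46 and 7.43). Ikzf1, a factor of lymphoid and early blood cells, was 4.44-fold lower (adjusted p = 0.00151) and the repressor Gfi1 2.37-fold (adjusted p = 0.00831). Klf1, the factor of red cells, was higher by 0.90 on the log2 scale (adjusted p = 0.00572), a call lost under median centring (0.0758). Gata1 was higher by 0.83 without passing (adjusted p = 0.0614), and Ikzf2 by 0.87 (adjusted p = 0.0402, lost in 10 alternatives). Gfi1b differed by 0.06 with an interval of -1.16 to 1.28. Spi1, the factor of myeloid cells, was held in both, at 7.79, 7.56 and 7.05 in Flk1+ against 7.05, 7.14 and 7.90 in cTnT+ (difference -0.10, interval -0.70 to 0.49).

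Of 23 blood cell signalling genes, 4 were higher and 4 lower (17.4% each, against 22.6% and 16.6% of all genes, median -0.10). Samsn1, given above, was the lowest of them, followed by the phosphatase Inpp5d (3.77-fold lower, adjusted p = 0.0177), the integrin activator Fermt3 (2.87-fold, adjusted p = 0.00731) and the myeloid enzyme Mpo (2.01-fold, adjusted p = 0.0219). Inpp5d did not pass without Flk1+ replicate 1, Flk1+ replicate 2 or cTnT+ replicate 1 (0.0539 to 0.0617), where the list had 2 lower. Plek, a kinase substrate of platelets and leukocytes, was at 6.11, 6.22 and 7.08 in Flk1+ against 8.94, 9.29 and 9.71 in cTnT+, 7.17-fold higher (adjusted p = 0.00015). The adaptor Sla, the platelet chemokine Pf4 and the kinase Btk were higher as well and were dim in Flk1+. Arhgdib was held in both at 11.33, 11.49 and 11.35 against 11.38, 11.97 and 12.30 (difference 0.50, adjusted p = 0.0921), and it was called higher without cTnT+ replicate 1 (0.00383). Alox5ap, which serves leukotriene synthesis, was held in both too (difference -0.35, interval -0.89 to 0.18), and it was called lower without cTnT+ replicate 2 (0.0369).

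Of 19 blood cell surface receptors, 4 were higher and 1 lower (21.1% and 5.26%, against 22.6% and 16.6% of all genes, median 0.20). Itga2b (CD41), which marks the first blood progenitors and platelets, was at 10.54, 10.38 and 9.14 in Flk1+ against 8.36, 9.01 and 8.26 in cTnT+, 2.78-fold lower (adjusted p = 0.0147), a call lost without Flk1+ replicate 1 (0.0526) or Flk1+ replicate 2 (0.0573). Its partner chain Itgb3, which many other cells use, was 2.55-fold higher (adjusted p = 0.000224), so the chains of the platelet integrin moved apart. The platelet glycoprotein Gp9 was at 6.13, 6.04 and 6.20 against 7.66, 7.97 and 8.92, 4.18-fold higher (adjusted p = 0.000652). The erythropoietin receptor Epor was 1.73-fold higher (adjusted p = 0.0139), and the cytokine receptor chain Csf2rb was higher and dim. Ptprc (CD45), which marks nearly all white blood cells, was dim in both groups, at 4.49, 4.57 and 4.36 in Flk1+ and at 4.55, 4.44 and 5.67 in cTnT+.

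The Gimap GTPases, a family of immune cells and endothelium, gave 1 higher and 3 lower of 8 (median -0.58). The shares were 12.5% and 37.5%, against 22.6% and 16.6% of all genes. Gimap9 (2.26-fold, adjusted p = 0.0159), Gimap8 and Gimap5 were lower, the last pair being dim, and Gimap4 was at 9.98, 10.49 and 9.48 against 8.39, 9.26 and 8.86 without passing (adjusted p = 0.104). Gimap6 was the higher member (2.84-fold, adjusted p = 0.016), and it did not pass without cTnT+ replicate 2 (0.0527). Gimap9 did not pass without Flk1+ replicate 1 (0.0555) or Flk1+ replicate 2 (0.0607). Gimap1, Gimap3 and Gimap7 were alike within 2-fold. Of 15 macrophage genes, 1 was higher and 1 lower (6.67% each, against 22.6% and 16.6% of all genes, median 0.26). Their mean level was 6.06 to 6.23 on the Flk1+ arrays and 6.10, 6.24 and 6.89 on the cTnT+ arrays. The highest array was cTnT+ replicate 3. The lysosomal Cd68 was 2.88-fold lower (adjusted p = 0.00204), and the difference of Cd14 was 0.34 (adjusted p = 0.0177) and turned to -0.0007 under median centring.

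Globins and red cell genes were the blood list of which most members were higher in the cardiac culture. Of 16 measured, 13 were higher and 1 lower (81.2% and 6.25%, against 22.6% and 16.6% of all genes, median 1.65). Leaving out any array left 10 to 13 higher. The embryonic alpha-type globin Hba-x was at 13.01, 12.27 and 13.09 in cTnT+, at 7.24, 7.21 and 7.14 in Flk1+ and at 7.02, 7.44 and 7.44 in Flk1+Pdgfra+. The cTnT+ arrays were far from both progenitor fractions, and the difference from Flk1+ was 48.3-fold (adjusted p = 5.6e-06). The embryonic beta-type globin Hbb-y was at 11.48, 9.81 and 12.35 in cTnT+ and at 6, 5.85 and 4.86 in Flk1+ (49.9-fold, dim in Flk1+, adjusted p = 0.000207). Alas2, which starts haem synthesis in red cells, was at 10.65, 9.05 and 11 against 7.50, 7.55 and 6.34, 8.59-fold higher (adjusted p = 0.0017). The anion exchanger of the red cell membrane, Slc4a1, was at 9.95, 8.31 and 10.88 against 6.56, 6.32 and 6.02, 10.6-fold higher (adjusted p = 0.00144). In these 4 genes cTnT+ replicate 2 was the lowest cTnT+ array, and the mean over the whole list was 9.63, 8.67 and 9.85 on the cTnT+ arrays against 7.42 to 7.50 on the Flk1+ arrays.

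The other higher genes were the haem-binding Hebp1 (5.39-fold), the membrane skeleton protein Ank1 (3.06-fold), Ermap (3.23-fold), Blvrb (2.39-fold), the mitochondrial iron carrier Slc25a37 (1.82-fold), the last enzyme of haem synthesis Fech (1.67-fold) and Epb42 (1.58-fold), with Rhag and the blood group protein Kel dim in Flk1+. The transferrin receptor Tfrc (0.17) and Rhd (0.22) were alike within 2-fold. Carbonic anhydrase 2, Car2, was the gene that went the other way, at 12.94, 12.95 and 12.99 in Flk1+ against 11.09, 10.05 and 11.33 in cTnT+ (4.39-fold lower, adjusted p = 0.000609). The red cell list was higher in cTnT+ while the haemato-endothelial factors Tal1, Lmo2 and Gata2, given above, were lower in the same arrays.

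**Figure D5:**
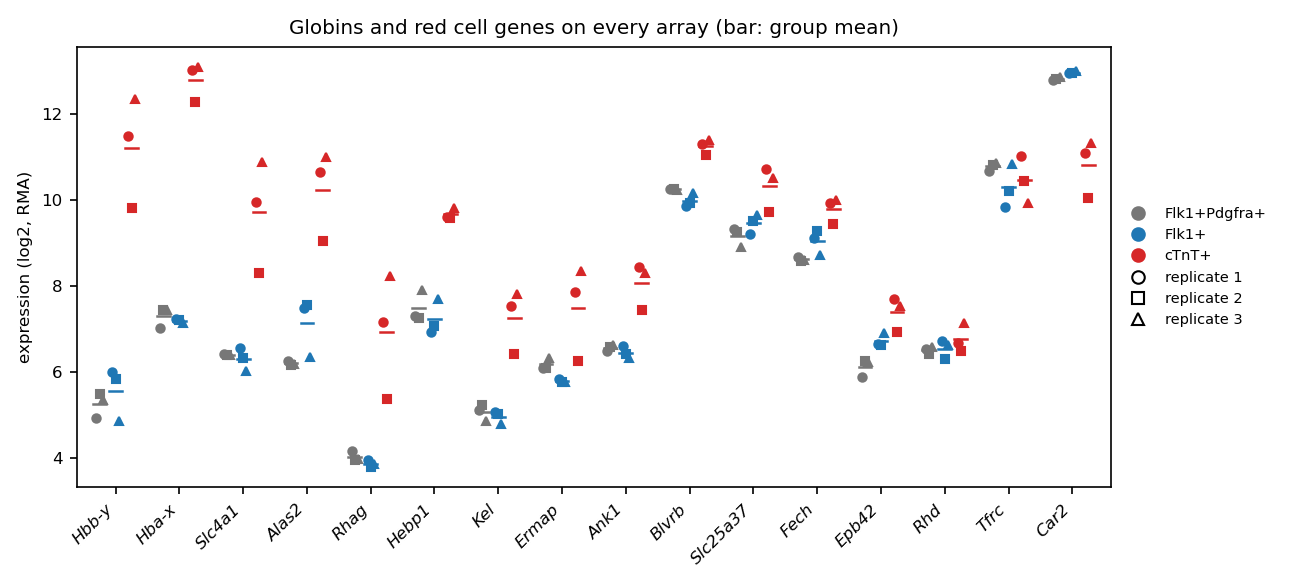
Expression (log2, RMA) of the 16 measured globin and red cell genes on each array, with colours for the groups and symbols for the replicate number. The cTnT+ arrays stand apart on the right for most genes, cTnT+ replicate 2 is the lowest of them for Hba-x, Hbb-y, Alas2 and Slc4a1, and Car2 has the reverse order.

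Promoter sequence is shown for 3 of these red cell genes and for the heart marker Myl7, because they were among the largest differences of their lists and because GATA factors act on red cell and on heart genes. Each line gives the 250 bases before the start of the gene (RefSeq, mouse build GRCm38.p6), 5′ to 3′ on the strand of the gene, and capitals mark matches to AGATAA or TGATAA on either strand. The windows are Hba-x at chr11:32276350-32276599 (plus strand), Hbb-y at chr7:103853208-103853457 (minus strand), Alas2 at chrX:150547167-150547416 (plus strand) and Myl7 at chr11:5898783-5899032 (minus strand).
Hba-x: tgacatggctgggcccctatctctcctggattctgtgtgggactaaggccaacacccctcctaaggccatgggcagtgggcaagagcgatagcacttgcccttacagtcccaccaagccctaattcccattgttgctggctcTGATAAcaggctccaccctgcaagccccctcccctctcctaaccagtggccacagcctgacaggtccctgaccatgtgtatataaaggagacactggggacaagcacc
Hbb-y: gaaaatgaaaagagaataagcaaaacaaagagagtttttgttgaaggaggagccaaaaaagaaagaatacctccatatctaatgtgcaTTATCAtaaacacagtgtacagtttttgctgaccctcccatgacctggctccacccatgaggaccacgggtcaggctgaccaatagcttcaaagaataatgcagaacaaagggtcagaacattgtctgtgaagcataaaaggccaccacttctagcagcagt
Alas2: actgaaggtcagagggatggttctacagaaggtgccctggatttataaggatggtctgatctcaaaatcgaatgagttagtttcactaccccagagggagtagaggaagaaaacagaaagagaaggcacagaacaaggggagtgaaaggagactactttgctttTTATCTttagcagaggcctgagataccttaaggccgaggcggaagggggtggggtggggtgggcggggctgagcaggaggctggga
Myl7: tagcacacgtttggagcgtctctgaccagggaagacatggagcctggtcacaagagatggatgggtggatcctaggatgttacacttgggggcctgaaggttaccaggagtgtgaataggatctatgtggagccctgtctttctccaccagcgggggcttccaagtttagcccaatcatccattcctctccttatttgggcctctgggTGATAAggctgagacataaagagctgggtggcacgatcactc

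The match began 108 bases before the start of Hba-x, 162 before that of Hbb-y, 86 before that of Alas2 and 42 before that of Myl7. Each window shown held a match, which was not so for every gene with a large difference. Tnnt2 had a match in 1 of its 2 windows, and Actn2 and Tnni1 had none. Among the 13 red cell genes higher in cTnT+, 9 had a window, and 7 of their 10 windows held a match. Over all 32851 promoter windows 16.6% held one, and over the 14927 windows of the genes measured here 12.7% did. Of the windows of sarcomere genes higher in cTnT+, 7 of 19 held a match, and of those of the ETS, SoxF, haemato-endothelial and blood factors that were lower, 4 of 22 did. The motif CACCC, searched on both strands as the core of KLF sites, was in 9 of the 10 red cell windows, in 52.0% of all windows and in 56.4% of those of the measured genes. The motif CCGGAA, the core of many ETS sites, was in 0 of the 10 red cell windows, in 3 of the 22 windows of the lower factors (13.6%), in 12.0% of all windows and in 16.5% of those of the measured genes. Matches to different motifs can share letters at their ends, and a match is a description of the letters only.

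Heart genes were mostly higher in cTnT+. Of 85 measured, 65 were higher and 2 lower (76.5% and 2.35%, against 22.6% and 16.6% of all genes, median 2.65). Without Flk1+ replicate 3 the counts were 62 and 1. Sarcomere genes gave 13 higher and 0 lower of 16 (median 4.14), with Myl7, Actn2 and the slow troponin I Tnni1 (38.0-fold, adjusted p = 5.09e-06) the largest. Calcium and ion channel genes gave 13 higher and 0 lower of 18 (median 2.97), led by Slc8a1, the calcium release channel Ryr2 (26.7-fold) and Hrc (17.2-fold), and Atp2a2, the calcium pump, was alike within 2-fold (0.41, interval -0.04 to 0.86). The list of cardiac factors had 16 of 20 higher and 2 lower (median 2.59). Gata5 was at 6.37, 6.09 and 5.97 in Flk1+ against 11.87, 12.32 and 11.86 in cTnT+, and Tbx5, a factor of the first heart field, was 32.3-fold higher (adjusted p = 8.71e-05). Gata4 (2.22-fold, adjusted p = 0.00794) and Gata6 (2.71-fold) were higher by less than Gata5, while the haemato-endothelial Gata2 was lower. Tbx3 was 3.60-fold lower (adjusted p = 0.00691), and Foxh1, a Nodal effector, was 2.52-fold lower (adjusted p = 0.0309), a call lost without any Flk1+ array (0.0672 to 0.0753) or without cTnT+ replicate 1 (0.056).

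Chamber genes gave 12 higher and 0 lower of 14 (85.7% and 0.0%, against 22.6% and 16.6% of all genes, median 1.89). Popdc2 (28.7-fold), Lbh (16.3-fold) and Smpx, dim in Flk1+, were the largest. Without 1 array the count was 8 to 13. Energy genes of heart mitochondria gave 11 higher and 0 lower of 17 (64.7% and 0.0%, median 0.68). Ppargc1a, the coactivator of mitochondrial genes, was the largest of these and dim in Flk1+ (adjusted p = 5.5e-07), Fabp3 was 17.0-fold and the nuclear receptor Esrrg 10.1-fold higher, while Sdhb (0.09) and Idh3a (-0.08) were alike within 2-fold. The sarcomere list had its highest mean on cTnT+ replicate 1, at 10.45 against 9.71 and 9.49, and on the same array the endothelial list had its lowest, at 9.18 against 9.83 and 9.43. The part of this spread in the endothelial calls was not tested.

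Genes of other heart cell types were higher in the cTnT+ culture too. Epicardial and fibroblast genes gave 13 higher and 0 lower of 19 (68.4% and 0.0%, against 22.6% and 16.6% of all genes, median 2.42). Upk1b (33.7-fold), Postn, dim in Flk1+, and Pdgfra were the largest. Tcf21, a factor of epicardium and fibroblasts, was 16.1-fold higher. Wt1, an epicardial factor, was not called (0.54, interval -0.64 to 1.73). The mean of this list was 8.59, 8.12 and 9.66 on the cTnT+ arrays against 6.57 to 6.83 on the Flk1+ arrays. Smooth muscle genes gave 7 higher and 1 lower of 12 (58.3% and 8.33%, median 1.25). Among the higher genes were Des (22.5-fold) and Cnn1 (9.80-fold), which heart muscle also uses in the embryo. Acta2 was at 7.21, 7.55 and 11.89 in Flk1+, so that replicate 3 alone was high there. The lower smooth muscle gene was Mylk (2.12-fold, adjusted p = 0.00412). The part of these cell types in the endothelial and blood differences was not tested.

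Primitive streak and nascent mesoderm genes gave 0 higher and 5 lower of 17 (median -0.24), and 3 lower without cTnT+ replicate 1. With all arrays the share lower was 29.4%, against 16.6% of all genes. Mixl1 was at 11.34, 11.72 and 12.66 in Flk1+ against 6.14, 6.38 and 6.40 in cTnT+, and Eomes and the ligand Wnt3 (10.6-fold, adjusted p = 2.66e-05) were lower as well. High levels were not particular to Flk1+. In Flk1+Pdgfra+ Mixl1 was at 13.6, 13.6 and 13.69, and the list's median Flk1+ minus Flk1+Pdgfra+ was -1.69. Pluripotency genes gave 1 higher and 4 lower of 18 (median -0.66), and 3 higher and 3 lower without Flk1+ replicate 3 (median -0.13). With all arrays their shares were 5.56% and 22.2%, against 22.6% and 16.6% of all genes. The largest called differences were those of Dppa4 (6.98-fold lower) and the methyltransferase Dnmt3b (4.71-fold lower, adjusted p = 2.19e-05). The higher gene, Dppa5a, was dim in Flk1+ and lost its call in 12 alternatives. Endoderm genes gave 0 higher and 1 lower of 10, neural genes 1 higher (Pax6, dim in Flk1+) and 1 lower of 11, and epithelial genes 1 higher (Krt19) and 0 lower of 12. Without Flk1+ replicate 3 endoderm genes gave 2 lower, neural genes 0 lower and epithelial genes 2 higher and 1 lower. The epithelial and pluripotency lists had their highest Flk1+ mean on replicate 3 (8.52 against 6.62 and 6.66, and 8.85 against 7.07 and 7.26), the array that stood apart.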

How the data were processed

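Total RNA of 9 samples in 3 groups of 3 was hybridised, 1 sample to an array. The authors deposited log2 expression values per transcript cluster, summarised by RMA at the level of core genes, per the labels. R 3.3.1 is named in the submitters' processing notes. Library file: not given in the sources used here, and the same holds for the genome build. RMA brings the arrays to a like distribution, so a change in the total RNA of a cell is not seen. The table held 23332 clusters, of which 14996 had 1 symbol, 1019 several and 7317 none. Symbols were updated through Entrez for 14941 clusters (RefSeq, GRCm38.p6) and kept for 55. The brightest cluster was kept for each gene, which set 136 aside and left 14860 genes. The number of arrays limits the precision.

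The fit used all 9 arrays with 1 coefficient per group (limma 3.58.1, R 4.3.3, eBayes with no intensity trend). Tests were two-sided, p-values were adjusted by Benjamini-Hochberg over all 14860 genes, and a gene was called at an adjusted p under 0.05. An interval is the 95% interval of 1 gene, not adjusted for the number of genes. Named genes were the markers and the sort genes, the 10 largest called differences and 5 smallest p-values in each direction, up to 3 called members per direction of each list, and the genes held in both populations. Other list members were named after their values were seen. The comparison, its members and all gene lists were chosen with earlier results of these data known, so their counts are descriptions. Comparisons with Flk1+Pdgfra+ share those arrays and are given side by side only. The alternatives were other scalings, filters, spread models, replicate numbers as a block and leaving out each array. Clusters with several symbols or none entered only the alternative that kept every transcript cluster, and their genes were not described.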

Additional observations from a re-analysis of the deposited data

How the results depend on the processing

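Of 136 named genes, 125 were called, and 101 of these were called under each of the 20 alternatives that tested them. Of 2708 values of named genes, 2590 kept their side of the threshold, 114 kept the direction and lost the call and 3 gained a call. The remaining 1 changed sign from a called difference, which was Cd14 under median centring (-0.0007, adjusted p = 0.997). The 2590 include changes of sign in genes called in neither fit, such as Acvrl1 (-0.25 to 0.33 over the fits). Median centring gave 1909 genes higher, 4721 lower and 32 blood genes lower, and the cause was not tested. Keeping every transcript cluster tested 23332 clusters, with or without a symbol, and gave 4076 clusters lower and 3756 higher. Those are counts of clusters and not of the 14860 genes. Array weights gave 35 endothelial genes lower and only progenitor replicates 1 and 2 gave 41, and for both the cause was not tested. Leaving out each array in turn gave 2656 to 3526 genes higher, 1880 to 2464 lower, 1855 to 2384 at least 2-fold different and 9932 to 10333 bounded. The same fits gave 17 to 23 endothelial genes higher and 14 to 29 lower, and 22 to 27 blood genes higher and 14 to 23 lower, with 14 endothelial genes lower without Flk1+ replicate 2. Same-numbered Flk1+ and cTnT+ arrays deviated together at correlations of 0.036, 0.095 and 0.038, so the numbers were not taken as pairs for this comparison. Same-numbered Flk1+Pdgfra+ and Flk1+ arrays did so at 0.251, 0.325 and 0.460. Replicate 1 of either group and replicate 2 of the other reached 0.347 and 0.352, so replicates 1 and 2 were not singled out as same-numbered pairs. The replicate 3 arrays had 0.460 with each other and -0.351 to -0.409 with replicates 1 and 2 of the other group. Whether the replicate 3 arrays were a pair was not tested. In that comparison the block, chosen after seeing the data, gave 886 genes higher in Flk1+ in place of 872. The replicate block gave 3415 genes higher, 2466 lower, 2143 at least 2-fold, 10503 bounded, 23 and 30 endothelial and 28 and 23 blood genes higher and lower, 10 in place of 6 endothelial surface genes were lower, and Dppa5a was the named gene that lost its call (adjusted p = 0.0829). Probes near the low range of the arrays limit the folds of dim genes.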

Other observations

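Genes of the cell cycle were mostly lower in the cTnT+ culture than in Flk1+, with 15 of 23 lower and 2 higher (median -0.49, against 0.05 over all genes). The shares were 65.2% lower and 8.7% higher, against 16.6% and 22.6% of all genes. Tyms, which makes thymidylate for DNA synthesis, was 4.59-fold lower (adjusted p = 0.000131), Mcm5, a subunit of the replicative helicase, 2.20-fold (adjusted p = 0.000158) and the cyclin Ccnd1 2.10-fold (adjusted p = 0.0403, lost in 10 alternatives). The other measured helicase subunits Mcm2, Mcm3, Mcm4, Mcm6 and Mcm7 were lower by 1.59-fold to 1.92-fold. Mki67 (-0.32) and Top2a (-0.06), which mark dividing cells, were alike within 2-fold. The higher genes were the cell cycle inhibitor Cdkn1c (5.12-fold, adjusted p = 0.000508) and Ccnd2 (2.46-fold, adjusted p = 0.00285).

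Glycolysis and hypoxia genes were mostly higher in cTnT+, with 12 of 14 higher and 0 lower (85.7% and 0.0%, against 22.6% and 16.6% of all genes, median 1.23). Bnip3, a mitophagy protein induced by low oxygen, was 11.3-fold higher (adjusted p = 0.000132), and Pdk1, which keeps pyruvate from the mitochondria, 5.52-fold (adjusted p = 0.000498). The peptide hormone Adm was higher too and was dim in Flk1+. Egln3, another gene induced by low oxygen, was not called (-0.60, interval -1.32 to 0.12). Stress and immediate early genes gave 2 higher and 4 lower of 15 (13.3% and 26.7%, against 22.6% and 16.6% of all genes, median -0.44). Among them Atf3 (7.35-fold), Jun (2.86-fold) and Junb (2.24-fold) were lower and Ier3 (3.39-fold) and Ddit3 (1.81-fold) higher. Ddit3 did not pass without Flk1+ replicate 1, Flk1+ replicate 2 or cTnT+ replicate 2 (0.058 to 0.0654). Of 8 reference genes, 1 was higher and 3 lower (12.5% and 37.5%, against 22.6% and 16.6% of all genes). All differed by less than 1 log2 unit (median -0.15), among them B2m (0.73) and Rplp0 (-0.47). The call of B2m was lost under median centring (adjusted p = 0.0797).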
